A study of Bos taurus with 6 samples.

Results

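The 10 genes of serine synthesis and of the *ATF4* amino acid response were examined in bovine mammary epithelial cells (bMECs) in which *ACADSB* had been knocked out. They were chosen by name, for their known functions, but with earlier results of these data known, as were the gene lists set beside them below. The set held *PHGDH*, *PSAT1* and *PSPH* of serine synthesis, *SHMT2* and *MTHFD2* of mitochondrial one-carbon metabolism, *ASNS* of asparagine synthesis, and the stress genes *CHAC1*, *TRIB3*, *DDIT4* and *SESN2*. All 10 were found among the 15693 genes of the count table, and all 10 were among the 13720 genes with enough reads to be tested.

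When amino acids run short, uncharged tRNA activates the kinase GCN2, which phosphorylates the translation factor eIF2α. General translation then falls while the mRNA of the transcription factor *ATF4* is translated more, and *ATF4* switches on genes that make, import and charge amino acids. The enzymes *PHGDH*, *PSAT1* and *PSPH* turn an intermediate of glycolysis into serine, and *SHMT2* and *MTHFD2* pass a carbon of serine to folate inside mitochondria, where it feeds the synthesis of nucleotides. In the lactating mammary gland, amino acids are taken up and made in large amounts for milk protein.

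The product of *ACADSB* is a mitochondrial dehydrogenase of short and branched acyl-CoA, which takes part in the breakdown of isoleucine. The *ACADSB*-/- bMECs (3 libraries) carried a Cas9 edit of this gene, made with a guide RNA on the PX458 plasmid, which also expresses GFP, and by the methods were grown out from a single sorted cell. The WT bMECs (3 libraries) were the control of the labels and the negative control of the methods. Both groups were cells from mammary tissue of the Chinese Holstein breed in lactation, by the methods from a single cow, and were grown with fetal bovine serum, hydrocortisone and insulin. No source states that the libraries of a group were separate cultures, so p-values measure the spread between these libraries only, which may be technical. The paper calls the edited line monoclonal, so the history of that clone cannot be told apart from the loss of *ACADSB*.

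Each library held 30550275 to 34983965 counts, and log2 CPM, the counts put on one library size, correlated at 0.991 to 0.993 within a group and at 0.95 to 0.956 between groups. The edited gene was sparsely expressed, with 9, 7 and 15 counts of *ACADSB* in *ACADSB*-/- bMECs and 38, 34 and 20 counts in WT bMECs. Luminal epithelial markers summed to 3257 to 3541 FPKM (reads scaled by gene model length and library total) in *ACADSB*-/- bMECs and 4101 to 4230 FPKM in WT bMECs, a sum led by *KRT18* (log2 fold change -0.56), but of the 7 tested 4 rose, led by *EPCAM* (0.60), and 2 fell (median 0.38). Basal markers summed to 2209 to 2334 FPKM in *ACADSB*-/- bMECs and 1936 to 2029 FPKM in WT bMECs, a sum led by *KRT5* (0.16), and of the 4 tested 2 rose and *KRT14* fell (-0.92). Fibroblast markers summed to 599 to 626 FPKM in *ACADSB*-/- bMECs and 504 to 542 FPKM in WT bMECs, nearly all of it from *DCN* (0.21). Of the 5 fibroblast markers tested, *DCN* rose and *TWIST2* (-1.65) and *COL3A1* (-1.17) fell (median -0.70), and 6 of all 9 stayed under 1 FPKM. Endothelial markers summed to 1.07 to 1.55 FPKM in *ACADSB*-/- bMECs and 3.78 to 3.90 FPKM in WT bMECs, a sum led by *ERG*. Of the 4 tested, *ERG* (-2.04) and *PECAM1* (-5.76) fell and *VWF* (1.11) rose. Immune markers summed to 2.25 to 3.14 FPKM in *ACADSB*-/- bMECs and 1.60 to 2.30 FPKM in WT bMECs, a sum led by *CD68*. Of the 2 tested, *CD68* (0.55) rose and *CSF1R* (-2.25) fell. In each of these 2 lists, 6 of all 7 markers stayed under 1 FPKM. Of the 6 milk protein genes, 5 were at 0 in all libraries and *LALBA* reached at most 0.0417 FPKM, so the genes that define milk-producing cells were absent or nearly so. The luminal, basal, fibroblast and endothelial sums did not overlap between the groups, while the immune sums did. The part of these markers in the results below was not tested.

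The levels of the 10 genes, compared per length in FPKM, spanned a wide range. In *ACADSB*-/- bMECs the order of the mean levels was *SHMT2* (61.1 FPKM), *PHGDH* (60.4), *DDIT4* (29.9), *ASNS* (23.2), *MTHFD2* (19.9), *PSPH* (19.5), *PSAT1* (17.9), *SESN2* (8.52), *TRIB3* (6.70) and *CHAC1* (2.61 FPKM). In WT bMECs it was *SHMT2* (76.6 FPKM), *PHGDH* (55.0), *ASNS* (33.5), *PSAT1* (25.5), *MTHFD2* (23.1), *PSPH* (19.8), *DDIT4* (16.4), *SESN2* (8.10), *TRIB3* (7.59) and *CHAC1* (5.56 FPKM). Neighbours in this order were separated in all libraries except *SHMT2* and *PHGDH*, and *MTHFD2* and *PSPH*, in *ACADSB*-/- bMECs, and *SESN2* and *TRIB3* in WT bMECs. *DDIT4* stood at rank 3 in *ACADSB*-/- bMECs and at rank 7 in WT bMECs, while *PSAT1* stood at rank 7 in *ACADSB*-/- bMECs and at rank 4 in WT bMECs.

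**Figure D1:**
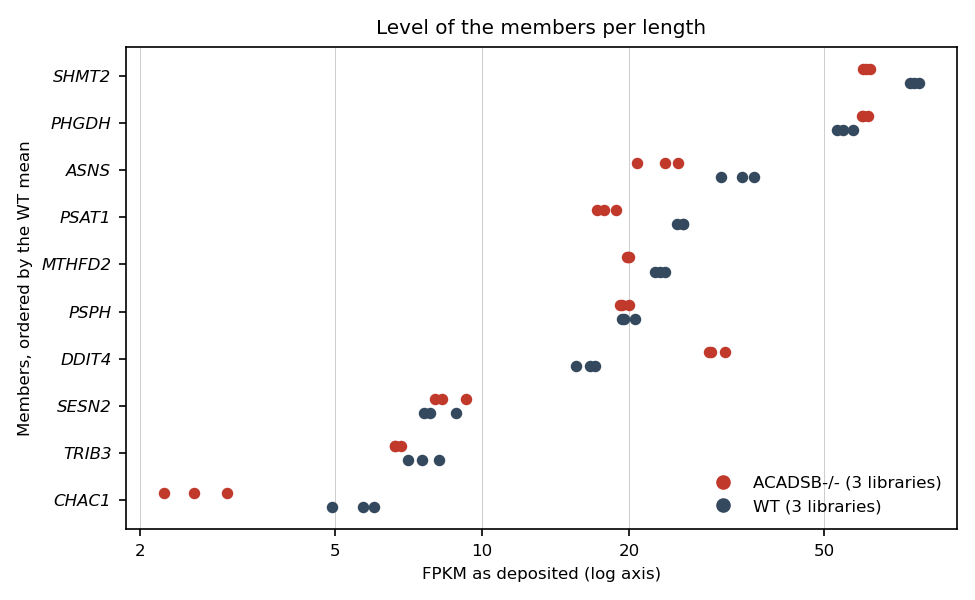
Level of the 10 genes in FPKM (log axis), 1 point per library, with *ACADSB*-/- bMECs (red) drawn above WT bMECs (dark blue) for each gene, and genes ordered by the WT mean. *DDIT4* lies at 29.1 to 31.3 FPKM in *ACADSB*-/- bMECs and 15.5 to 17.0 FPKM in WT bMECs, and *CHAC1* is the lowest gene in both groups.

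Against WT bMECs, 1 of the 10 genes rose in *ACADSB*-/- bMECs, *DDIT4*, and 5 fell: *ASNS*, *PSAT1*, *SHMT2*, *MTHFD2* and *CHAC1*. The other 4, *PHGDH*, *PSPH*, *TRIB3* and *SESN2*, did not pass an adjusted p of 0.05 in the quasi-likelihood test of edgeR. Of all 13720 genes tested, 29.7% rose and 28.6% fell at this threshold, so 1 gene higher and 5 lower of 10 have to be read against a background in which more genes passed than not. At a change of at least 2-fold, 0 of the 10 rose and *CHAC1* alone fell, beside 5.3% of all tested genes higher and 4.92% lower. At an unadjusted p under 0.05, 0 of the 10 rose at least 2-fold as well, and DESeq2 also gave 0. The highest log2 fold change in edgeR was 0.83 (*DDIT4*), under 2-fold, so the p adjustment had no part in this 0. For 7 of the 10 genes, the 6 called ones and *TRIB3*, no *ACADSB*-/- library overlapped the WT libraries in CPM, beside 63.6% of all tested genes. The median log2 fold change was -0.23 over the 10 genes and 0.00 over all tested genes. In such bulk samples fewer cells that express a gene and less RNA per cell cannot be told apart.

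**Figure D2:**
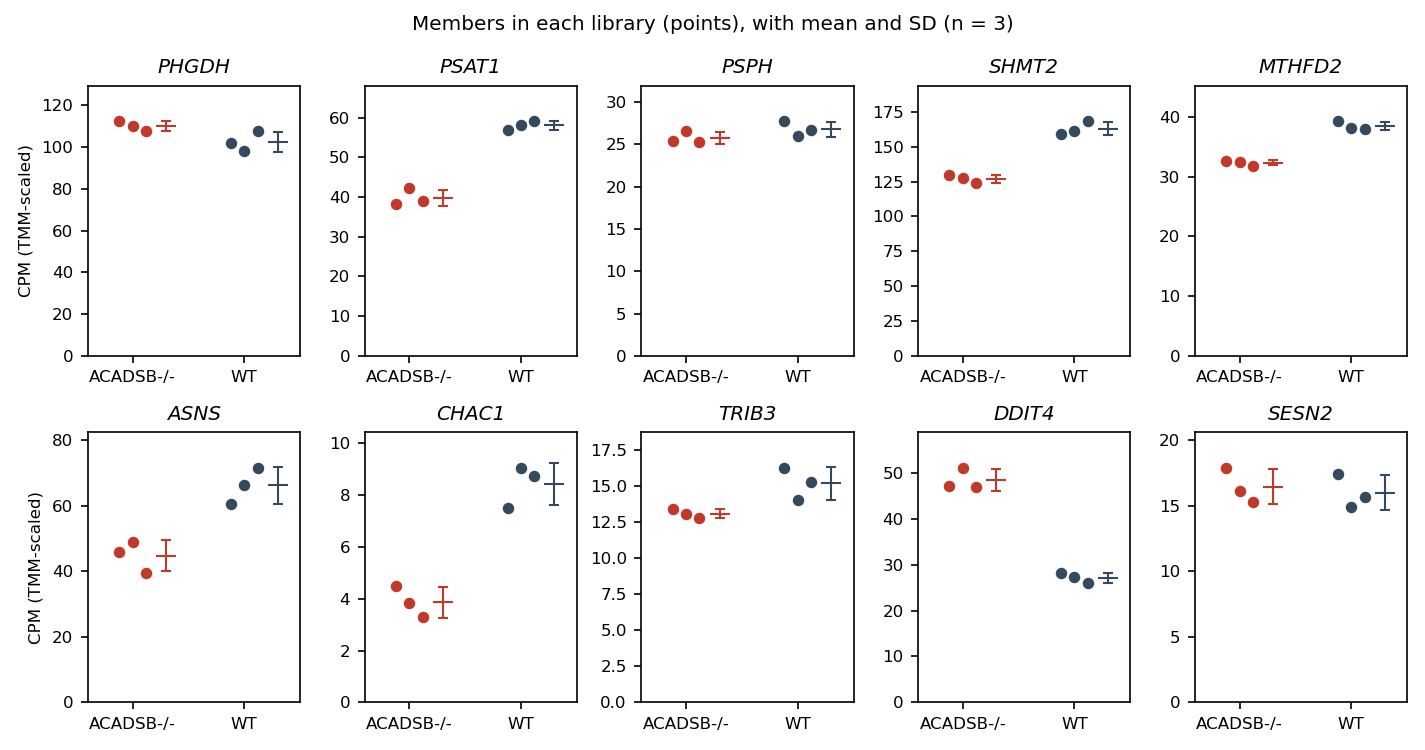
CPM of each of the 10 genes (TMM-scaled, axis from 0, a scale for each gene), with *ACADSB*-/- bMECs (red) left of WT bMECs (dark blue). Points are libraries and bars give the mean and SD of 3 libraries; *DDIT4* is the gene whose *ACADSB*-/- points all lie above the WT points, and *ASNS*, *PSAT1*, *SHMT2*, *MTHFD2*, *CHAC1* and *TRIB3* are those whose *ACADSB*-/- points all lie below.

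The serine synthesis enzymes moved unevenly: *PSAT1* fell, and *PHGDH* and *PSPH* did not pass the test. *PHGDH*, which oxidizes 3-phosphoglycerate in the committed step, lies in the deposited coordinates on chromosome 3 from 23877902 to 23909092 (minus strand; no source used here gives the genome build). It had 112, 110.0 and 107.5 CPM in *ACADSB*-/- bMECs and 102, 98.2 and 107.6 CPM in WT bMECs. The groups met at the lowest *ACADSB*-/- and the highest WT library, and the log2 fold change was 0.10 (SE 0.0541, adjusted p = 0.111). In FPKM, which were scaled by library totals, *PHGDH* was 59.7 to 61.6 in *ACADSB*-/- bMECs and 53.2 to 57.2 in WT bMECs, without overlap, and 3 alternatives with that scaling put it past the threshold (adjusted p = 0.0232 to 0.0281).

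*PSAT1* (chromosome 8, 54710852 to 54739138, plus strand), the transaminase that takes an amino group from glutamate to make phosphoserine, had 38.2, 42.2 and 39.0 CPM in *ACADSB*-/- bMECs and 56.9, 58.1 and 59.1 CPM in WT bMECs. All *ACADSB*-/- libraries lay below all WT libraries, at 68.6% of the WT mean. The log2 fold change of *PSAT1* was -0.54 (SE 0.0668, adjusted p = 4.06e-08). *PSPH* (chromosome 25, 28096947 to 28119049, minus strand), the phosphatase that releases serine in the last step, had 25.4, 26.6 and 25.2 CPM in *ACADSB*-/- bMECs and 27.7, 25.9 and 26.7 CPM in WT bMECs. Its groups overlapped, with a log2 fold change of -0.06 (SE 0.081, adjusted p = 0.552).

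Both mitochondrial one-carbon enzymes fell. *SHMT2* (chromosome 5, 56715444 to 56720716, minus strand), which splits serine into glycine and a one-carbon unit on folate, had 129, 128 and 124 CPM in *ACADSB*-/- bMECs and 159, 162 and 168 CPM in WT bMECs. The coefficient of variation was 2.28% in *ACADSB*-/- and 2.89% in WT bMECs, and the *ACADSB*-/- mean was 77.9% of the WT mean (log2 fold change -0.36, SE 0.0508, adjusted p = 4.82e-07). *SHMT2* shared 28 bases of its span with *NDUFA4L2*, which had at most 15 counts in a library, and whether counting used the strand is not stated. *MTHFD2* (chromosome 11, 10465862 to 10487708, minus strand), a dehydrogenase and cyclohydrolase of the folate carrier, had 32.6, 32.5 and 31.8 CPM in *ACADSB*-/- bMECs and 39.3, 38.1 and 38.0 CPM in WT bMECs. The gap was small but wider than the range of either group, at 84.0% of the WT mean (log2 fold change -0.25, SE 0.0722, adjusted p = 0.00375).

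*ASNS* (chromosome 4, 15112087 to 15259542, minus strand), which makes asparagine from aspartate and glutamine and is a classical target of *ATF4*, fell as well. It had 45.8, 48.9 and 39.6 CPM in *ACADSB*-/- bMECs and 60.5, 66.5 and 71.6 CPM in WT bMECs. Its libraries varied more than those of the serine and one-carbon enzymes (coefficient of variation 10.6% in *ACADSB*-/- and 8.37% in WT bMECs), yet no *ACADSB*-/- library reached a WT library. The log2 fold change of *ASNS* was -0.56 (SE 0.0759, adjusted p = 4.67e-07), or 67.6% of the WT mean.

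The 4 stress genes did not move together: *CHAC1* fell, *DDIT4* rose, and *TRIB3* and *SESN2* did not pass the test. *CHAC1* (chromosome 10, 36739565 to 36741936, plus strand), a cyclotransferase that degrades glutathione, had 4.48, 3.85 and 3.28 CPM in *ACADSB*-/- bMECs and 7.50, 9.06 and 8.74 CPM in WT bMECs. These rest on 158, 118 and 104 counts in *ACADSB*-/- bMECs and 246, 276 and 271 counts in WT bMECs. The *ACADSB*-/- mean was 45.9% of the WT mean, with no overlap, and the log2 fold change of -1.12 (SE 0.156, adjusted p = 4.06e-07) was the largest fall of the 10 genes. On the log2(FPKM + 1) scale, which understates changes of low genes, it was -0.86 and no longer 2-fold.

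*TRIB3* (chromosome 13, 61415258 to 61426250, minus strand), a pseudokinase that binds AKT and *ATF4*, had 13.4, 13.0 and 12.8 CPM in *ACADSB*-/- bMECs and 16.2, 14.0 and 15.2 CPM in WT bMECs. The groups did not overlap, but WT library 2 lay near the *ACADSB*-/- libraries, and the log2 fold change of -0.21 (SE 0.104) had an adjusted p of 0.0784. Without WT library 2 it was -0.28, with an adjusted p of 0.0325 in edgeR.

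*DDIT4* (chromosome 28, 28585776 to 28587807, plus strand), which restrains the growth kinase complex mTORC1 through TSC2 and is induced by hypoxia, glucocorticoids and p53 as well as by *ATF4*, had 47.1, 51.1 and 47.0 CPM in *ACADSB*-/- bMECs and 28.1, 27.3 and 26.0 CPM in WT bMECs. All *ACADSB*-/- libraries lay well above all WT libraries, at 178% of the WT mean. The log2 fold change of *DDIT4* was 0.83 (SE 0.0735, adjusted p = 5.24e-11). *SESN2* (chromosome 2, 126127569 to 126143162, minus strand), a leucine sensor that also restrains mTORC1, had 17.9, 16.1 and 15.3 CPM in *ACADSB*-/- bMECs and 17.5, 14.9 and 15.6 CPM in WT bMECs. Its groups overlapped over nearly their whole range (log2 fold change 0.04, SE 0.102, adjusted p = 0.761), and the sign turned when *ACADSB*-/- library 1 (-0.03) or WT library 2 (-0.02) was left out.

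*ATF4* mRNA itself was lower in *ACADSB*-/- bMECs. It had 420.4, 418 and 403 CPM in *ACADSB*-/- bMECs and 589, 585 and 583 CPM in WT bMECs, with a log2 fold change of -0.50 (SE 0.0453, adjusted p = 9.04e-11). *ATF4* is controlled mostly at translation, and its protein was not measured here. Of 15 tested genes for eIF2α kinases, phosphatases and *ATF4* partners, 5 rose, 4 fell and 6 did not pass the test (median log2 fold change 0.02).

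Among these regulators the partners of *ATF4* went in both directions. *CEBPG*, a C/EBP protein that pairs with *ATF4*, fell (log2 fold change -0.41, adjusted p = 0.000394), as did *JDP2*, a related bZIP protein (-0.66, adjusted p = 6.82e-05). *DDIT3* (CHOP), a stress factor that *ATF4* induces, rose by 0.34 on the log2 scale, with 39.9, 39.4 and 39.8 CPM in *ACADSB*-/- bMECs and 32.9, 33.7 and 27.2 CPM in WT bMECs (adjusted p = 0.000498). *ATF3*, another stress factor, had a log2 fold change of 0.13 (adjusted p = 0.0323), and this call was lost without *ACADSB*-/- library 1 or 3 or WT library 2 or 3 (adjusted p = 0.0916 to 0.13).

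The stress cofactor *NUPR1* rose, with 7.06, 8.09 and 7.01 CPM in *ACADSB*-/- bMECs and 3.90, 3.15 and 3.45 CPM in WT bMECs (log2 fold change 1.07, adjusted p = 1.07e-06). *EIF2AK2* (PKR), the eIF2α kinase that senses double-stranded RNA, had 25.7, 23.4 and 25.7 CPM in *ACADSB*-/- bMECs and 7.71, 14.0 and 13.7 CPM in WT bMECs, and rose by 1.08 on the log2 scale (adjusted p = 0.000947) with WT library 1 below the other WT libraries. *PPP1R15B*, a subunit of the phosphatase that removes the eIF2α phosphate, rose by 0.62 (adjusted p = 2.21e-10). *EIF2AK4* (GCN2), the kinase that senses uncharged tRNA, named after its values were seen, had 54.3, 46.9 and 55.5 CPM in *ACADSB*-/- bMECs and 54.7, 50.7 and 49.2 CPM in WT bMECs. The groups overlapped (log2 fold change 0.02, adjusted p = 0.83), and phosphorylation of eIF2α was not measured.

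**Figure D3:**
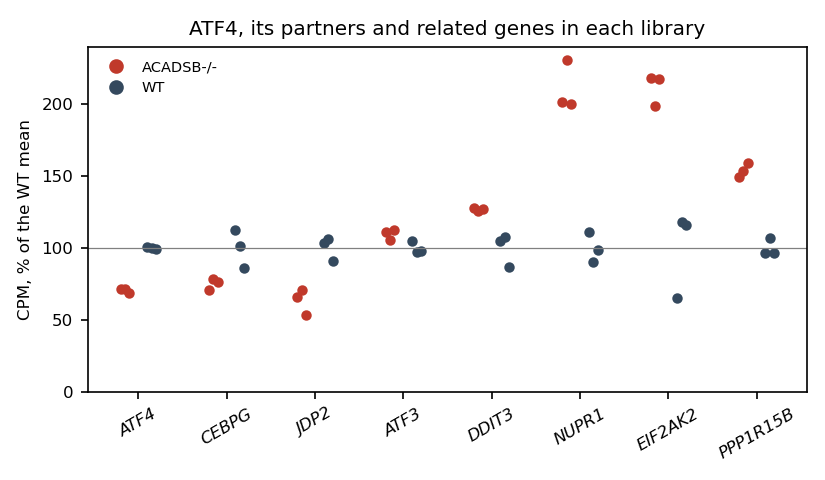
CPM of *ATF4* and of 7 related genes in each library as a percentage of the WT mean of the gene (line at 100), with *ACADSB*-/- bMECs (red) left of WT bMECs (dark blue). *ATF4*, *CEBPG* and *JDP2* lie below the line in all *ACADSB*-/- libraries, and *NUPR1*, *EIF2AK2* and *PPP1R15B* lie above it.

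The wider serine, glycine and folate cycle had 8 genes higher, 10 lower and 10 that did not pass the test, of 28 tested (median log2 fold change -0.08). Among those lower were *SDS*, which breaks serine down (-1.42), the methionine synthase *MTR* (-1.27), which had 1.05, 1.86 and 1.51 CPM in *ACADSB*-/- bMECs and 4.15, 3.48 and 2.97 CPM in WT bMECs, and the serine racemase *SRR* (-1.26). Among those higher was the mitochondrial folate carrier *SLC25A32* (0.90). The mitochondrial serine carrier *SFXN1*, named after its values were seen, had 15.2, 14.5 and 13.3 CPM in *ACADSB*-/- bMECs and 27.6, 28.5 and 24.8 CPM in WT bMECs (log2 fold change -0.91, adjusted p = 1.22e-09). The cycle thus held large changes in both directions around the small falls of *SHMT2* and *MTHFD2*.

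Of 10 tested paralogs of the 10 genes, 5 rose, 2 fell and 3 did not pass the test (median log2 fold change 0.18). Against a member that passed the test, *MTHFD2L* and *CHAC2* went the other way. *MTHFD2L*, the other mitochondrial enzyme of the *MTHFD2* type, also named after its values were seen, had 29.0, 28.6 and 29.4 CPM in *ACADSB*-/- bMECs and 16.6, 18.1 and 16.7 CPM in WT bMECs (log2 fold change 0.76, adjusted p = 8.25e-09). Of the FPKM of both genes together, *MTHFD2* made up 61.3% to 62.4% in *ACADSB*-/- bMECs and 75.5% to 77.6% in WT bMECs, while the sum was 31.8 to 32.3 FPKM in *ACADSB*-/- bMECs and 29.4 to 30.6 FPKM in WT bMECs. The share of *MTHFD2* was lower in *ACADSB*-/- bMECs in every library. The cytosolic *MTHFD1* (-0.50) and the mitochondrial formate producer *MTHFD1L* (-0.46) fell, and *SHMT1*, the cytosolic form of *SHMT2*, was listed at 0 to 0.0514 FPKM.

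The paralogs of *CHAC1*, which fell, and of *SESN2*, which did not pass the test, rose. *CHAC2*, which degrades glutathione more slowly, had 4.51, 3.03 and 2.90 CPM in *ACADSB*-/- bMECs and 2.04, 1.94 and 1.87 CPM in WT bMECs (log2 fold change 0.84, adjusted p = 0.0019). *CHAC1* made up 49.9% to 56.0% of the FPKM of both in *ACADSB*-/- bMECs and 78.7% to 82.4% in WT bMECs. The sum of both was lower in *ACADSB*-/- bMECs, at 4.21 to 6.03 FPKM against 6.29 to 7.30 FPKM in WT bMECs. *SESN3* had 43.0, 41.2 and 42.4 CPM in *ACADSB*-/- bMECs and 11.3, 13.8 and 10.6 CPM in WT bMECs (log2 fold change 1.82, adjusted p = 1.37e-16), the largest change among the paralogs, and *SESN1* rose by 0.90 (adjusted p = 1.65e-06). *SESN2* was the highest of the 3 sestrins per length in every library, with 64.9% to 68.2% of the FPKM of *SESN2* and *SESN3* in *ACADSB*-/- bMECs and 84.7% to 88.8% in WT bMECs. The sum of *SESN2* and *SESN3* was higher in *ACADSB*-/- bMECs, at 12.3 to 13.6 FPKM against 8.88 to 9.97 FPKM in WT bMECs. How reads shared between paralogs were counted is not stated.

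**Figure D4:**
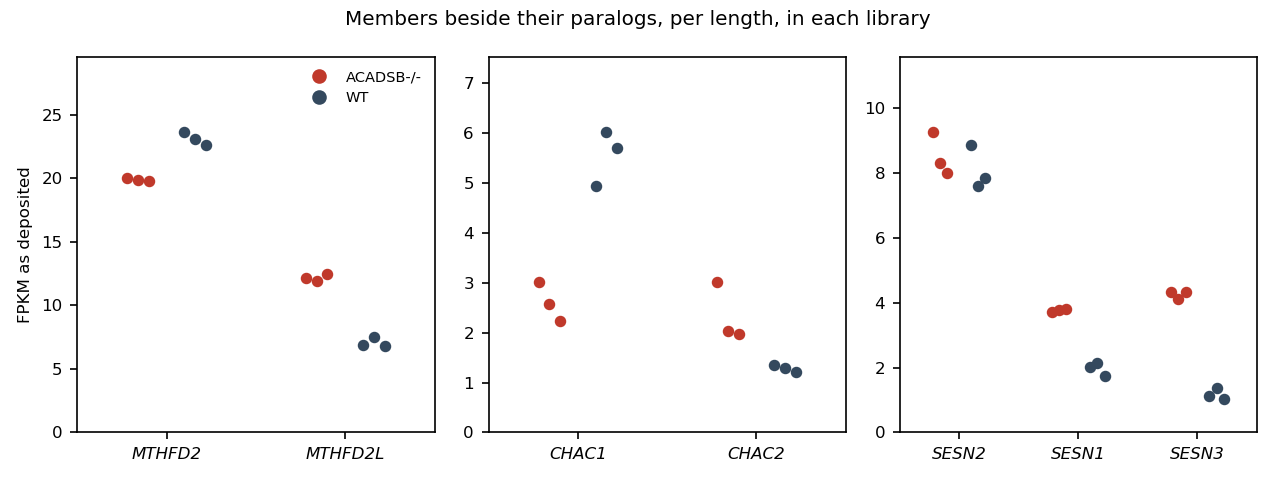
FPKM of *MTHFD2*, *CHAC1* and *SESN2* beside their paralogs, 1 point per library, with *ACADSB*-/- bMECs (red) left of WT bMECs (dark blue) and axes from 0. *MTHFD2L*, *CHAC2*, *SESN1* and *SESN3* are higher in all *ACADSB*-/- libraries than in any WT library, while *MTHFD2* and *CHAC1* are lower and *SESN2* overlaps.

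Other genes under *ATF4* control were counted by function. Here, as for the lists above and below, the counts stand beside 29.7% of all tested genes higher and 28.6% lower. Of 22 tested enzymes and other target genes, 7 rose, 10 fell and 5 did not pass the test (median log2 fold change -0.11). The proline synthesis enzymes *ALDH18A1* (-1.91) and *PYCR1* (-0.97) fell most, with 9.78, 7.83 and 10.04 CPM of *ALDH18A1* in *ACADSB*-/- bMECs and 34.4, 32.7 and 36.8 CPM in WT bMECs. *EIF4EBP1*, a repressor of translation that mTORC1 inhibits, fell by 0.95 on the log2 scale. Among those that rose were the alanine aminotransferase *GPT2* (0.82), the argininosuccinate synthase *ASS1* (0.45) and the lipoprotein receptor *VLDLR* (0.42).

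Amino acid transporters split, with 6 higher, 3 lower and 1 that did not pass the test, of 10 tested (median log2 fold change 0.36). The glutamine carrier *SLC1A5* had 39.4, 40.1 and 39.5 CPM in *ACADSB*-/- bMECs and 132, 121 and 138 CPM in WT bMECs (log2 fold change -1.72, adjusted p = 1.19e-20). Both chains of the leucine exchanger fell, *SLC3A2* by 0.68 and *SLC7A5* by 0.40 on the log2 scale. *SLC38A2*, a sodium-coupled carrier of neutral amino acids induced by amino acid shortage, had 1021, 985 and 1018 CPM in *ACADSB*-/- bMECs and 461, 576 and 529 CPM in WT bMECs (log2 fold change 0.95, adjusted p = 6.11e-11). *SLC36A4* (1.02) and *SLC1A4*, a carrier of serine and alanine (0.61), rose. The cystine carrier *SLC7A11* had 16, 10 and 2 counts in *ACADSB*-/- bMECs and 0, 0 and 4 in WT bMECs and was too sparse to be tested.

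The 12 cytosolic aminoacyl-tRNA synthetases, which charge tRNA with amino acids, gave 9 lower and 3 that did not pass the test (median log2 fold change -0.21). Among all tested genes, 28.6% were lower. None was higher in edgeR (0 also at an unadjusted p under 0.05, and 0 in DESeq2). The highest log2 fold change of the list was 0.00, so the p adjustment had no part in this 0. The falls were small, led by *CARS* (-0.46), *MARS* (-0.39) and *GARS* (-0.28), and none of them passed a test for a change beyond 1.5-fold.

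*DDIT4* was set beside genes of the other signals that are known to induce it. Of 10 glucocorticoid receptor targets, 7 rose and 3 fell (median log2 fold change 0.38). Among them, *TSC22D3* (2.56) and *KLF9* (1.06) rose and *SGK1* (-0.92) fell. *TSC22D3* was sparse, with 142, 100 and 109 counts in *ACADSB*-/- bMECs and 15, 21 and 21 in WT bMECs. Its log2 fold change ran from 1.07 to 2.65 over the 16 alternatives. Hydrocortisone was in the medium of both groups. Of 14 hypoxia genes, 9 rose, 3 fell and 2 did not pass the test (median 0.41). *LDHA* was higher (0.85), and the glucose transporter *SLC2A1* (-1.17) and *P4HA1* (-1.08) were lower. Of 13 p53 targets, 5 rose, 3 fell and 5 did not pass the test (median 0.09). The death receptor *FAS* was higher (0.97), and *BAX* (-0.62) and *CDKN1A* (-0.38) were lower. These counts stand beside 29.7% of all tested genes higher and 28.6% lower. The part of these signals in the rise of *DDIT4* was not tested.

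Genes of mTORC1 nutrient sensing gave 5 higher, 5 lower and 10 that did not pass the test, of 20 (median log2 fold change -0.01). The lysosomal GTPases *RRAGD* (0.64) and *RRAGC* (0.44) were among those higher. These counts were unsteady: 3 were higher without *ACADSB*-/- library 3, and 3 were lower without *ACADSB*-/- library 1, *ACADSB*-/- library 2 or WT library 3. The unfolded protein response, a different stress branch that can also raise *ATF4*, had 4 genes higher, 9 lower and 5 that did not pass the test, of 18 (median log2 fold change -0.10), with the secreted stress factor *MANF* lower (-0.67) and *DNAJB9* higher (0.62).

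Genes of glutathione synthesis and breakdown, the pathway of *CHAC1*, gave 4 higher, 1 lower and 3 that did not pass the test, of 8 (median log2 fold change 0.51). Both subunits of glutamate-cysteine ligase, the enzyme that limits glutathione synthesis, rose, *GCLM* by 1.20 and *GCLC* by 0.94. Of 6 genes that build membrane lipids from serine, 3 rose, 2 fell and 1 did not pass the test (median log2 fold change 0.09). *SERINC1*, a membrane protein named for incorporating serine into lipids, rose by 0.68, and *PTDSS2*, a phosphatidylserine synthase, fell by 0.54.

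**Figure D5:**
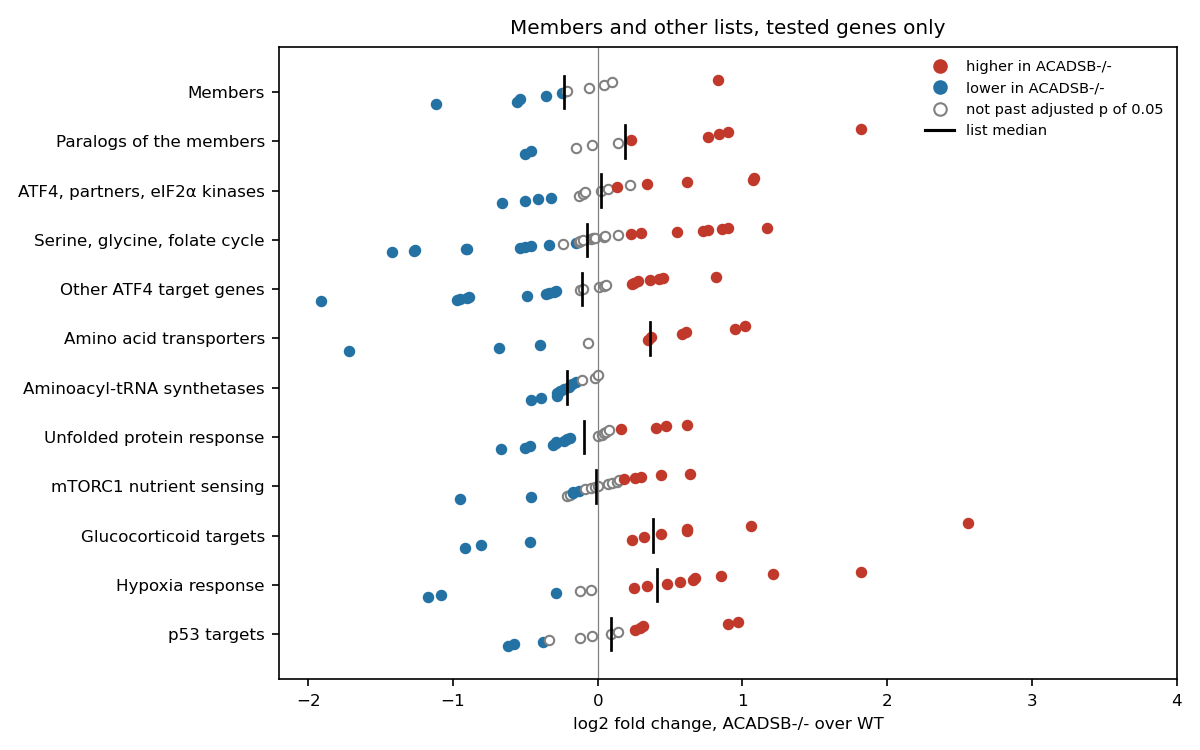
Log2 fold change (*ACADSB*-/- over WT bMECs) of each tested gene in the 10-gene set and in 11 other lists, with red for higher, blue for lower and open points for genes that did not pass an adjusted p of 0.05; black bars are list medians. The list of aminoacyl-tRNA synthetases under *ATF4* control is the one with no gene higher, and the 10-gene set has *DDIT4* at 0.83 apart from the other 9.

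Genes whose pattern over the 6 libraries was most like that of *DDIT4* and *CHAC1* were found from log2 CPM centred on each gene's mean. For *DDIT4* they were *LRIG3* (root mean square difference 0.0318), *SSBP2* (0.0372) and *ALS2CL* (0.0393). For *CHAC1* they were *NETO1* (0.0656), *MCF2L2* (0.0879) and *ZFAND5* (0.0909). The difference between groups dominates such patterns.

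In the region of 1 Mb on each side of *DDIT4*, 23 other genes were tested, of which 2 rose and 10 fell (median log2 fold change -0.44), so the rise of *DDIT4* was not shared by most of its neighbours. Around *CHAC1*, 9 of 45 rose and 19 fell (median -0.11). Among all tested genes, 29.7% rose and 28.6% fell. Over the 10 genes and *ATF4*, the share of neighbours lower ran from 0% (*PHGDH*) to 51.7% (*ATF4*, 15 of 29). Around *PSAT1*, which fell, 6 of 8 neighbours rose and 1 fell (median 0.69).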

How the data were processed

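RNA-seq libraries of 3 *ACADSB*-/- and 3 WT bMEC samples were grouped by their labels. Raw counts of reads for each gene and FPKM values, which scale reads by gene length and library total, were deposited by the authors as tables. The FPKM table holds 3 columns of libraries outside the series, which were not used. Columns of log2 fold changes and p-values in the deposited tables are the authors' own comparison and were not used. Bismark 0.12.5 is listed in the processing notes of the submitters, without its role. No source used here gives the aligner, counting tool, strand setting or genome build. Gene sequences were not used here. Deposited positions were used as given, and all 10 genes matched RefSeq symbols.

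Counts were tested in edgeR 4.0.16 (R 4.3.3) with filterByExpr (minimum count 10, minimum total 15), which kept 13720 of 15693 genes, and TMM scaling. The quasi-likelihood test, robust and two-sided, was fitted on condition over all 6 libraries, with Benjamini-Hochberg adjustment over all tested genes and a threshold of 0.05. EB-Seq, named in the methods of the study, was not run. CPM used TMM-scaled library totals. The counts of libraries of 1 group differed by more than sampling noise (chi-square per degree of freedom 3.9 to 9.58), so none was taken as a copy of another; this does not show that they were separate cultures. Libraries held 30550275 to 34983965 counts, and the common dispersion corresponds to a biological coefficient of variation of 6.64% between libraries. The steps were tested on simulated counts.

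The members and the 19 other lists were chosen with earlier results of these data known. Up to 3 genes per list and direction with the largest change past the test could be named, with *ATF4*, *ATF3*, *DDIT3*, *SLC7A11*, *SHMT1*, *MTHFD1L*, *CHAC2*, *SESN1* and *SESN3*, and the 3 tested genes closest in pattern to the members with the largest rise and fall. *EIF2AK4*, *SFXN1*, *MTHFD2L* and the epithelial, fibroblast, endothelial and immune markers were named after their values were seen. Some genes that the rule would name are not reported here. The 16 alternatives used DESeq2 1.42.0, limma 3.58.1 on log2(FPKM + 1) and log2(FPKM + 0.1), other scalings and filters, a replicate block, a test beyond 1.5-fold and each library left out. Figures were drawn with matplotlib 3.10.9.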

Additional observations from a re-analysis of the deposited data

How the results depend on the processing

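Of 160 log2 fold changes of the 10 genes under 16 alternatives, 150 kept their direction and their side of the threshold. *PHGDH* passed with library totals only (0.14), with limma on log2(FPKM + 1) (0.13) and on log2(FPKM + 0.1) (0.14), so that 2 of the 10 genes were higher in each. With the test beyond 1.5-fold, *ASNS* (-0.56), *PSAT1* (-0.54), *SHMT2* (-0.36) and *MTHFD2* (-0.25) were no longer called, 1 of the 10 was lower (*CHAC1*), and 940 of all genes were higher and 749 lower, against 4068 and 3922. On log2(FPKM + 1), 0 of the 10 fell at least 2-fold, with 295 of all genes higher and 245 lower at 2-fold, against 727 and 675. With a mean of at least 50 counts, 366 were lower at 2-fold, with fewer genes tested. Leaving out a library gave log2 fold changes of -0.28 to -0.16 for *TRIB3* and -0.03 to 0.10 for *SESN2*, -0.02 to 0.09 for *EIF2AK4*, and 5 to 6 of the 10 genes lower. The test beyond 1.5-fold cut the list counts to 2 higher and 0 lower for the paralogs and for the eIF2α and *ATF4* regulators, 4 and 4 for the serine and folate cycle, 1 and 5 for other *ATF4* targets, 2 and 1 for transporters, 0 and 0 for the synthetases, the unfolded protein response and the lipid genes, 0 and 1 for mTORC1 sensing, 2 and 0 for p53 targets, 2 and 2 for glucocorticoid targets and for hypoxia, and 3 and 0 for glutathione. mTORC1 genes lower were 2 with library totals and 3 with limma on both FPKM scales, and glutathione genes lower 0 on log2(FPKM + 0.1). The replicate numbers did not pair the samples (correlation of deviations -0.0402, -0.0256 and -0.0236). With the replicate block, 1 of the 10 genes was higher and 5 lower, and log2 fold changes were 0.83 for *DDIT4* and -1.12 for *CHAC1*. The cause of these shifts was not tested. *CHAC1*, the least covered of the 10, had the largest SE of them (0.156), and the part of depth in this was not tested.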
